A study of Saccharomyces cerevisiae with 22 samples.

Results

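The 6 genes described here encode ribonucleotide reductase of Saccharomyces cerevisiae and its control: the large subunits *RNR1* (YER070W, chromosome V) and *RNR3* (YIL066C, chromosome IX), the small subunits *RNR2* (YJL026W, chromosome X) and *RNR4* (YGR180C, chromosome VII), the inhibitor *SML1* (YML058W, chromosome XIII) and the checkpoint kinase *DUN1* (YDL101C, chromosome IV). They were found by symbol in the probe annotation of the arrays, 6 of 6373 features measured. On each of 22 dual-channel arrays, RNA of a mutant strain was hybridized against a common wild type reference RNA, so every value below is a log2 ratio of mutant over reference for steady-state RNA. There were 12 mutant profiles. In synthetic complete medium (SC) they were *ctk1*Δ, which lacks the kinase for serine 2 of the RNA polymerase II carboxy-terminal domain (CTD), *set2*Δ, *eaf3*Δ and *rco1*Δ, which lack the Set2 histone methyltransferase or a subunit of the Rpd3S deacetylase, *rtt103*Δ, which lacks a reader of the serine 2 phosphorylated CTD, *rrp6*Δ and *lrp1*Δ, which lack exosome factors, *sen1-1*, a helicase mutant of early termination, and *pcf11-2* and *pcf11-ts2*, alleles of a cleavage and termination factor. In YPD, a rich medium, they were *ctk1*Δ again and *rpb1-S2A*, in which alanine replaces serine 2 in all CTD repeats. The study used YPD for both because *rpb1-S2A* grew poorly in SC. The *sen1-1* and *pcf11* strains are temperature-sensitive and were grown at the same temperature as the others. The study describes it as permissive, with partial loss of function in most such strains. Each profile had 2 arrays, a (mutant in Cy3) and b (mutant in Cy5), from independently inoculated cultures, except *pcf11-2* (array b) and *pcf11-ts2* (array a) with 1 each. No wild type grown in YPD was used here and the medium of the reference culture is not given in the sources used here, so within a YPD profile the medium and the mutation cannot be told apart.

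Ribonucleotide reductase reduces ribonucleotides to deoxyribonucleotides, the rate-limiting step of their synthesis for DNA replication and repair. In budding yeast the Mec1-Rad53 checkpoint activates Dun1, which brings about degradation of the inhibitor Sml1 and relief of repression by Rfx1 (Crt1) at *RNR2*, *RNR3* and *RNR4*, while *RNR1* belongs to the genes that the MBF factor switches on at the G1/S transition. Rnr3 is a second, normally scarce large subunit whose gene is a classical reporter of replication stress, Rnr2 carries the radical cofactor, and Rnr4 is needed for its assembly.

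The deleted gene was lower in all 8 profiles of a deletion, by log2 -4.06 (*LRP1*) to -2.46 (*CTK1* in YPD), *PCF11* was at -0.99 and -1.24 in its alleles, *RPO21*, the gene altered in *rpb1-S2A*, was at -1.97, and *SEN1* was at 0.28 in *sen1-1*. The labels give BY4742, a MATalpha strain, for all strains, while the study's strain list puts *rpb1-S2A*, *sen1-1* and both *pcf11* alleles in BY4741, a MATa strain. All 4 genes specific to alpha cells were called lower (log2 -5.81 to -2.04) and all 7 specific to a cells higher (1.77 to 4.61) in each of these 4 profiles, against -1.04 to 1.44 and -0.24 to 1.00 in the other 8. Mating type therefore differed between *rpb1-S2A* and *ctk1*Δ, and its part in the differences below was not tested. *LYS2*, the auxotrophic marker of BY4742, was at 2.71 to 3.02 in those 4 profiles. It was also called higher in *ctk1*Δ, at 3.13 in SC and 2.06 in YPD. In the remaining deletion profiles it was at -0.19 to 0.06. *MET17*, the marker of BY4741, was at -4.90 to -3.99 in those 4 profiles and at 0.35 and -0.00 in *ctk1*Δ. Whether *ctk1*Δ differs in strain background from the other deletions was not tested. Arrays of 1 profile correlated at r = 0.529 to 0.967 across features, and between 94.8 and 99.6% of probes were above background in the mutant channel.

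A value was called where limma's adjusted p was under 0.05 and the fold change over 1.7 (0.77 on the log2 scale). By this rule, 4 of the 72 values of the 6 genes in 12 profiles were called, all higher: *RNR3* in *ctk1*Δ in SC and in YPD, and *RNR2* and *RNR4* in *ctk1*Δ in YPD. That is 5.56% of the values, where 4.85% of all feature by profile pairs were called. *RNR2* had a part in the choice of these genes, and without it 3 of 60 values were called. *RNR1*, *SML1* and *DUN1* were called in no profile, whereas 21.3% of all features were called in at least 1. The calls were 1 of 6 genes in *ctk1*Δ in SC, where 7.28% of all features were called higher, and 3 of 6, or 2 of 5 without *RNR2*, in *ctk1*Δ in YPD, where 6.79% were. In the other 10 profiles no member was called. The share of all features called in either direction there was 12.4% in *rpb1-S2A*, 7.63% in *pcf11-2*, 6.5% in *sen1-1*, 4.03% in *pcf11-ts2*, 2.23% in *rrp6*Δ, 1.27% in *rtt103*Δ and 1.26% in *lrp1*Δ, and 1.62% (*set2*Δ), 0.785% (*eaf3*Δ) and 0.91% (*rco1*Δ) in the mutants of the Set2 pathway. The median of the 6 was 0.50 in *ctk1*Δ in SC, 0.86 in *ctk1*Δ in YPD and -0.05 in *rpb1-S2A*, while the median of all features was -0.01, -0.01 and -0.00. The medians of the 6 include *RNR2*, were not computed without it, and are given as a description. With no size required, 32 of the 72 values had an adjusted p under 0.05, beside 35.7% of all pairs.

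**Figure D1:**
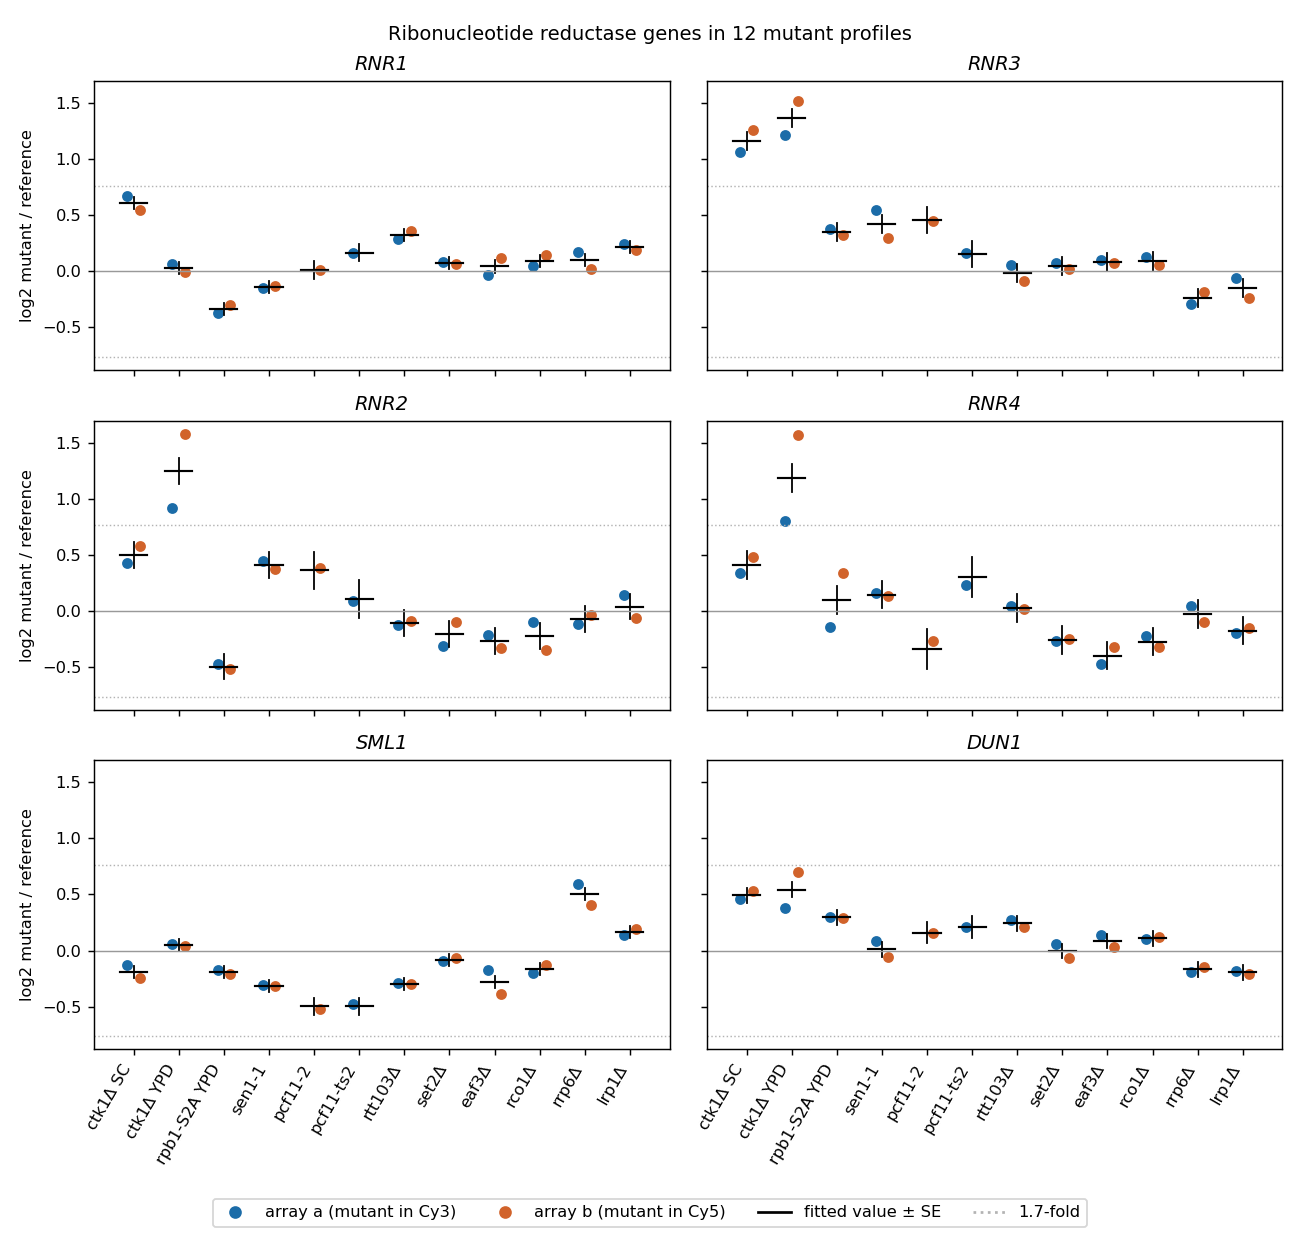
Log2 ratio of mutant over reference (y axis) of the 6 genes in the 12 profiles (x axis). Points are single arrays, the horizontal line is the fitted value with its standard error, and dotted lines mark 1.7-fold; *RNR3* stands above the upper line in both *ctk1*Δ profiles, *RNR2* and *RNR4* only in *ctk1*Δ in YPD, and no value lies below the lower line.

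*RNR1*, which encodes the main large subunit, was highest in *ctk1*Δ in SC, with log2 ratios of 0.67 and 0.55 on arrays a and b. The fitted value of 0.61 (SE 0.05, n = 2) is a 1.53-fold difference with an adjusted p of 8.35e-07, which stayed under the required fold. Over the 16 arrays of the 9 other SC profiles the lowest *RNR1* value was -0.15, the median 0.10 and the highest 0.36, so both *ctk1*Δ arrays in SC lay above all of them. The share of all features with arrays separated in this way was not computed, here or for the genes below. Such separation is therefore not read as particular to these genes. In *ctk1*Δ, 61.3% of all features in SC and 58.4% in YPD had an adjusted p under 0.05 at any size. In YPD the picture was different. The *ctk1*Δ arrays gave 0.07 and -0.01, and the *rpb1-S2A* arrays gave -0.37 and -0.30, the lowest *RNR1* values of the series. In the order of the 12 profiles, 2 of the 11 steps between neighbours exceeded 2 standard errors, the step from *ctk1*Δ in SC down to *rtt103*Δ (0.32) and the step from *sen1-1* (-0.14) down to *rpb1-S2A* (-0.33).

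*RNR3*, which encodes the damage-inducible large subunit, rose in both *ctk1*Δ profiles. The arrays gave 1.06 and 1.26 in SC and 1.22 and 1.52 in YPD. These 4 arrays did not overlap with the other 18, whose highest value was 0.55 in *sen1-1* array a. The fitted values were 1.16 (SE 0.08, 2.24-fold, adjusted p = 7.67e-08) in SC and 1.37 (SE 0.08, 2.58-fold, adjusted p = 1.74e-08) in YPD. Below them came *pcf11-2* at 0.46 (1 array), *sen1-1* at 0.43 and *rpb1-S2A* at 0.35, whose arrays gave 0.38 and 0.33. The remaining 7 profiles ran from -0.24 (*rrp6*Δ) to 0.16 (*pcf11-ts2*). Only the step from *ctk1*Δ in SC to *pcf11-2* exceeded 2 standard errors. *RNR3* was the dimmest of the 6 probes, with a signal of 42.6 to 251 in the mutant channel and 24.4 to 123 in the reference channel, though above background in both channels on 22 of 22 arrays. Its ratios therefore depended on the offset of 50 added before the logarithm. With no offset the 2 *ctk1*Δ values were 2.01 and 2.25, and *RNR3* was also called in *rpb1-S2A*, *sen1-1* and *pcf11-2*, at 0.83 in each. *RNR3* belongs to a group of genes that the study formed from *ctk1*Δ and the *pcf11* alleles on these same samples, so its rise in *ctk1*Δ is not independent of that choice.

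*RNR2*, which encodes the catalytic small subunit, rose in *ctk1*Δ in YPD. Its arrays gave 0.92 and 1.58 there, against 0.43 and 0.58 in *ctk1*Δ in SC and -0.48 and -0.51 in *rpb1-S2A*. The fitted values were 1.25 (SE 0.12, 2.38-fold) in *ctk1*Δ in YPD, 0.50 (SE 0.12) in *ctk1*Δ in SC and -0.50 (SE 0.12) in *rpb1-S2A*. The 2 arrays of *ctk1*Δ in YPD lay above the other 20, of which the highest was 0.58, and the 2 of *rpb1-S2A* lay below all others. In *sen1-1* the arrays gave 0.45 and 0.37, and the single *pcf11-2* array gave 0.38. The 16 arrays of the 9 other SC profiles ran from -0.35 through a median of -0.09 to 0.45. The difference between ctk1 loss and *rpb1-S2A* at *RNR2* was named when these genes were chosen, so its size is given as a description, with no test.

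*RNR4*, which encodes the assembly partner of Rnr2, rose in *ctk1*Δ in YPD too. Its arrays gave 0.80 and 1.57 there, the largest gap between replicates (0.76) among the 6 genes. The fitted value was 1.19 (SE 0.12, 2.27-fold, adjusted p = 3.41e-06), and both arrays lay above the other 20, of which the highest was 0.48. In *ctk1*Δ in SC the arrays gave 0.34 and 0.48 (fitted 0.41), and in *rpb1-S2A* -0.14 and 0.34 (fitted 0.10). The lowest fitted *RNR4* values were -0.40 in *eaf3*Δ (arrays -0.47 and -0.32) and -0.34 in *pcf11-2* (-0.27 on its single array). For *RNR2* and *RNR4* alike, only the step from *ctk1*Δ in YPD to the next profile exceeded 2 standard errors, so neighbours among the remaining 11 profiles were not separated. The sequences of the probes were not used here, and whether the probes for *RNR1* and *RNR3*, or for *RNR2* and *RNR4*, also bind the RNA of the paralog was not tested.

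*SML1*, which encodes the protein inhibitor of the large subunit, varied by small and repeatable amounts. It was at 0.50 in *rrp6*Δ (arrays 0.59 and 0.41, SE 0.05, adjusted p = 1.3e-05, 1.41-fold) and at 0.17 in *lrp1*Δ (arrays 0.14 and 0.20). The single arrays of the *pcf11* alleles gave -0.52 and -0.48, the lowest of the series, and *sen1-1* gave -0.31 and -0.32. In all, 10 of its 12 values had an adjusted p under 0.05 and none exceeded 1.7-fold. Neither *ctk1*Δ profile stood apart, with -0.13 and -0.25 on the arrays in SC and 0.06 and 0.04 in YPD. The median of the 12 fitted *SML1* values was -0.19, and 3 of the 12 were above 0. With *SML1* centred on that median, *ctk1*Δ in SC was at 0.00 and *rpb1-S2A* at -0.00.

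*DUN1*, which encodes the kinase that acts on Sml1 and Rfx1, was highest in the 2 *ctk1*Δ profiles. Its arrays gave 0.46 and 0.53 in SC and 0.38 and 0.70 in YPD. All 4 were above the other 18 arrays, whose highest value was 0.30 in *rpb1-S2A*. The fitted values were 0.49 (SE 0.07, adjusted p = 2.9e-05) and 0.54 (SE 0.07, adjusted p = 1.4e-05), both under the required fold. They lay at the percentiles 86.4 and 88.6 of all features. The lowest values were -0.17 in *rrp6*Δ and -0.20 in *lrp1*Δ.

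The comparison of *rpb1-S2A* with *ctk1*Δ in the same medium asks whether loss of the phosphorylated residue and loss of its kinase leave the same RNA levels. *RNR3* and *RNR4* were called lower in *rpb1-S2A* than in *ctk1*Δ in YPD and *RNR2* had the widest gap of the 6 genes. *HUG1* was called lower as well. It is a small damage-inducible gene whose protein binds and restrains the reductase. At *RNR2* the difference was log2 -1.75 (3.36-fold), -1.40 between the a arrays and -2.10 between the b arrays. *RNR3* differed by -1.02 (SE 0.11, 95% interval -1.26 to -0.77, adjusted p = 6.52e-05), and *RNR4* by -1.09 (SE 0.17, interval -1.47 to -0.71, adjusted p = 0.0012). Leaving out *RNR2*, 2 of 5 genes were called lower, where 1.43% of all features were. *RNR1* was lower by -0.36 (SE 0.08, interval -0.53 to -0.20, adjusted p = 0.00762), under the required fold. For *SML1* (-0.24, interval -0.40 to -0.08, adjusted p = 0.0524) and *DUN1* (-0.25, interval -0.45 to -0.05, adjusted p = 0.109) no difference passed the test. Without array b of *ctk1*Δ in YPD the *RNR4* difference was -0.74 and no longer called, while *RNR3* stayed called when any 1 of the 4 arrays was left out (-1.19 to -0.84).

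**Figure D2:**
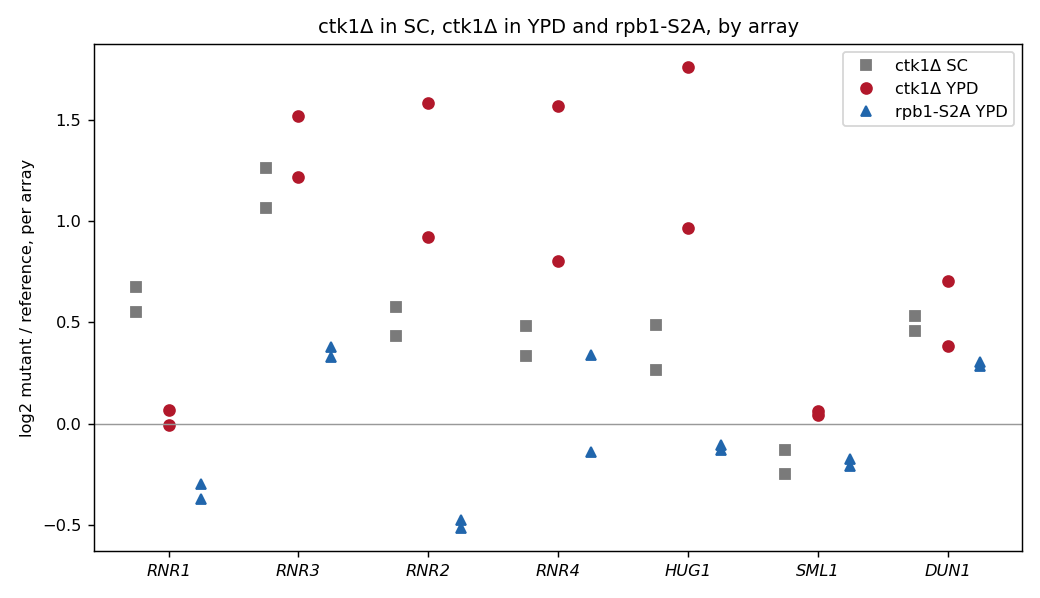
Log2 ratio of mutant over reference on single arrays (y axis) for the 6 genes and *HUG1* (x axis) in *ctk1*Δ in SC (squares), *ctk1*Δ in YPD (circles) and *rpb1-S2A* in YPD (triangles), 2 arrays each. The profiles do not overlap at *RNR1*, *RNR2* or *HUG1*, and the *rpb1-S2A* arrays also lie below all 4 *ctk1*Δ arrays at *RNR3* and *DUN1*. The *RNR4* value of *rpb1-S2A* array b (0.34) is level with that of *ctk1*Δ in SC array a (0.34).

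The extraction labels were the same for array a of *rpb1-S2A* and both arrays of *ctk1*Δ in YPD, and different for array b of *rpb1-S2A*. Between the a arrays alone, the differences were -0.84 at *RNR3*, -0.95 at *RNR4* and -1.10 at *HUG1*. The part of a general stress response in these differences was not tested. Of 16 targets of the Msn2 and Msn4 stress factors, 16 were called higher in *ctk1*Δ in SC, 16 in *ctk1*Δ in YPD and 15 in *rpb1-S2A*, with medians of 2.18, 1.57 and 1.55, and 0 were called in the difference between *rpb1-S2A* and *ctk1*Δ in YPD (median 0.00, and 0 at an adjusted p under 0.05 of any size). *HSP12*, a membrane heat shock protein gene, was at 3.67, 3.30 and 2.90 in the 3 profiles.

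**Figure D3:**
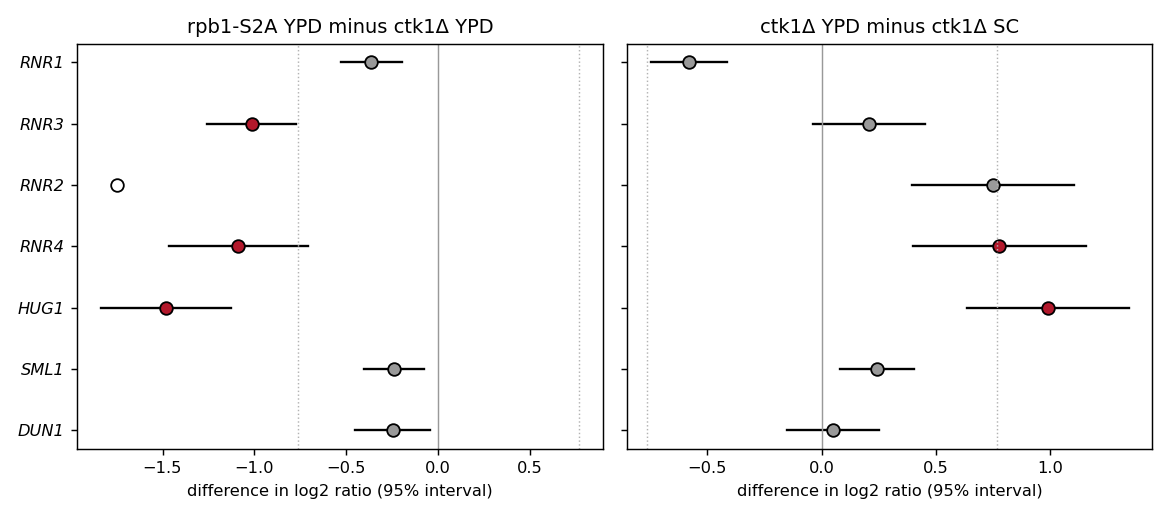
Difference in log2 ratio (x axis, with its 95% interval) for the 6 genes and *HUG1* (y axis), *rpb1-S2A* minus *ctk1*Δ in YPD on the left and *ctk1*Δ in YPD minus *ctk1*Δ in SC on the right. Red points were called, grey points were not, the open point for *RNR2* is a description without a test, and dotted lines mark 1.7-fold; *RNR1* falls on the opposite side of 0 from *RNR2*, *RNR4* and *HUG1* in the comparison of media.

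Between media, 1 of the 4 subunit genes was called in *ctk1*Δ. *RNR4* was higher in YPD by 0.78 (SE 0.17, adjusted p = 0.00997), the only 1 of the 6 genes called, where 1.52% of all features were called higher. *RNR2* was higher by 0.75 (SE 0.16, adjusted p = 0.00841), just under the required fold, and *HUG1* was higher by 0.99 (SE 0.16, adjusted p = 0.00148), though *HUG1* was not called without array b of *ctk1*Δ in YPD (0.64). *RNR1* went the other way, at -0.58 (SE 0.08, adjusted p = 0.00029), with -0.61 and -0.56 between the a and the b arrays. *RNR3* (0.21, interval -0.04 to 0.45), *SML1* (0.24, interval 0.08 to 0.40) and *DUN1* (0.05, interval -0.15 to 0.25) were not called. The *RNR4* call was fragile. It was lost with each array centred on its median in place of loess (0.59, adjusted p = 0.0951), with the authors' processed ratios (0.73, where *RNR2* at 0.86 was called instead), and without 3 of the 4 arrays (0.43 to 0.79). Medium and extraction labels changed together between the 2 *ctk1*Δ profiles, so their parts in these differences cannot be told apart.

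In SC, the *ctk1*Δ profile was set against the mutants of factors that act with the phosphorylated CTD. *RNR3* was higher in *ctk1*Δ than in the mean of *set2*Δ, *eaf3*Δ and *rco1*Δ by 1.09 (SE 0.09), than in *rtt103*Δ by 1.18 (SE 0.11), than in the mean of *rrp6*Δ and *lrp1*Δ by 1.36 (SE 0.10) and than in the mean of the *pcf11* alleles by 0.85 (SE 0.11, adjusted p = 8.67e-05). It was the only 1 of the 6 genes called in these 4 comparisons, in which 4.77, 6.67, 6.89 and 3.42% of all features were called higher. Against *sen1-1* the *RNR3* difference was 0.74 (SE 0.11, adjusted p = 0.000203), under the required fold, and 0 of the 6 genes were called, where 7.41% of all features were called in either direction. With no size required, 3 of the 6 had an adjusted p under 0.05 there, near the 41.8% of all features. *RNR2* in *ctk1*Δ lay close to its value in *sen1-1* (difference 0.09, interval -0.26 to 0.45), whereas *RNR1* was higher by 0.75 (SE 0.08, adjusted p = 8.74e-06). The call against the *pcf11* alleles was lost without array b of *ctk1*Δ in SC (0.73). The strains of *sen1-1* and the *pcf11* alleles also differ from *ctk1*Δ in mating type. From the other deletion strains *ctk1*Δ differed at the strain marker *LYS2*, and the part of strain background was not tested. Of the other SC profiles, only *eaf3*Δ and *rco1*Δ had the same extraction labels as *ctk1*Δ in SC. The rest differed in the label of the mutant or of the reference, and its part in these differences was not tested.

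Across the 12 profiles *RNR3*, *RNR2* and *RNR4* varied more than most features. The SD of the fitted log2 ratios was 0.49, 0.47 and 0.44, at the percentiles 92.3, 91.3 and 89.9 of all features, and 0.28 for *SML1*, 0.23 for *RNR1* and 0.23 for *DUN1*. As a description over 12 profiles that share the reference RNA, Pearson's r was 0.80 between *RNR2* and *RNR3*, 0.78 between *RNR2* and *RNR4*, 0.77 between *RNR3* and *RNR4*, 0.85 between *RNR3* and *DUN1* and -0.39 between *SML1* and *DUN1*. Spearman's rho for the first 4 pairs was 0.57, 0.61, 0.48 and 0.73. The 3 genes most alike each member were sought among 2437 with an SD of at least 0.2. For *RNR2* they were *HUG1* (r = 0.91), *BCH2* (0.83) and *PAI3* (0.83). For *DUN1* they were the thymidylate synthase gene *CDC21* (0.92), *MSE1* (0.91) and *LPP1* (0.90). *RNR3* had *YER121W* (0.96), *MCH2* (0.96) and *CAT2* (0.95), and *RNR4* had *LPP1* (0.87), *YGR201C* (0.83) and *VPS73* (0.83). *SML1* had *YLR297W* (0.94), *TDA6* (0.87) and *MBF1* (0.87). *RNR1* had *RFA2* (0.85), *HO* (0.84) and the G1 cyclin gene *CLN2* (0.83). *RFA2* encodes a subunit of the single-stranded DNA binding factor used in replication.

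*HUG1* (YML058W-A) is also the chromosomal neighbour of *SML1*, and the pair gave unlike values. *HUG1* was at 0.97 and 1.76 on the arrays of *ctk1*Δ in YPD, 0.26 and 0.49 in *ctk1*Δ in SC and -0.13 and -0.10 in *rpb1-S2A*. Both arrays of *ctk1*Δ in YPD were above the other 20, whose highest value was 0.64 in *pcf11-2*. The fitted value in *ctk1*Δ in YPD was 1.36 (SE 0.12, 2.57-fold, adjusted p = 5.09e-07), and the difference of *rpb1-S2A* from it was -1.48 (SE 0.16, adjusted p = 6.16e-05). *SML1* in the same YPD profiles was at 0.05 and -0.19. None of the 9 other measured neighbours of the 6 genes was called in any of the 12 profiles. Between profiles, *TDA2*, beside *RNR1*, was called lower in *ctk1*Δ in SC than in the mean of *rrp6*Δ and *lrp1*Δ (-0.92). *OKP1*, a kinetochore gene beside *RNR4*, was at -0.53 in *ctk1*Δ in SC, -0.26 in *ctk1*Δ in YPD and -0.51 in *rpb1-S2A*, and *RRN7*, beside *RNR2*, was at -0.11, -0.16 and -0.11.

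Upstream of these genes, transcripts of the checkpoint were called in no profile. None of 14 genes of the Mec1-Rad53 pathway was called in any of the 12 profiles, with medians of 0.19 in *ctk1*Δ in SC, 0.25 in *ctk1*Δ in YPD and 0.24 in *rpb1-S2A*. At an adjusted p under 0.05 of any size, 7, 8 and 10 of the 14 were higher in those profiles and 1 was lower in each, near the 61.3, 58.4 and 64% of all features that passed in either direction. *MEC1*, the gene of the sensor kinase, was called in 1 difference, higher in *ctk1*Δ in SC than in *sen1-1* (0.81, SE 0.07, adjusted p = 1.85e-06). Of 11 transcription factors of the RNR genes, only *RFX1* was called, higher in *ctk1*Δ in SC (0.78, SE 0.17), *ctk1*Δ in YPD (0.79) and *rpb1-S2A* (0.82). *RFX1* encodes the repressor of *RNR2*, *RNR3* and *RNR4* and is itself a target of its own repression. Its values lay just past the required fold, and with the authors' processed ratios they were 0.72, 0.54 and 0.60 and none was called. The value in *ctk1*Δ in YPD was 0.59 without array b, and that in *ctk1*Δ in SC was 0.75 without array b, neither of them called. Of 12 genes whose products control the enzyme after its synthesis, *HUG1* was called higher in *ctk1*Δ in YPD. *GRX4*, a glutaredoxin gene of iron handling, was called lower in *rrp6*Δ (-1.08, SE 0.05), where 0.596% of all features were called lower. *GRX4* was also lower in YPD than in SC among the *ctk1*Δ profiles, by -0.81 (SE 0.08), a call lost with the authors' ratios (-0.63). Of 6 reductant genes, only *GRX1*, a glutaredoxin, was called in a profile, higher in *ctk1*Δ in YPD (1.22, SE 0.14) and in *rpb1-S2A* (1.40, SE 0.14). At an adjusted p under 0.05 of any size, 4 and 5 of the 6 were higher in these profiles. In each, 1 was lower, *TRX1* (-0.33 and -0.34).

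Several genes that DNA damage induces rose in the *ctk1*Δ and *rpb1-S2A* profiles. Of 11 such genes, 2 were called higher in *ctk1*Δ in SC (*DIN7* and *RFX1*), 4 in *ctk1*Δ in YPD (*DIN7*, *HUG1*, *RAD2* and *RFX1*) and 4 in *rpb1-S2A* (*DIN7*, *RAD2*, *RAD54* and *RFX1*), and the medians were 0.58, 0.61 and 0.55. Of all features, 7.28% were called higher in *ctk1*Δ in SC, 6.79% in *ctk1*Δ in YPD and 7.23% in *rpb1-S2A*. *DIN7*, a mitochondrial nuclease gene, was at 0.95 (SE 0.06), 0.90 and 1.11. *RAD54*, a recombination gene, was at 0.69, 0.75 and 0.92, and *RAD2*, a nucleotide excision repair gene, at 0.58, 0.79 and 0.88. The *RAD2* calls were lost without array b of *ctk1*Δ in YPD (0.72) and without array a of *rpb1-S2A* (0.76). With each gene centred on its median over the 12 profiles, the calls of this list in the 3 profiles were lost except *HUG1* in *ctk1*Δ in YPD, with *DIN7* at 0.36, 0.31 and 0.52, *RFX1* at 0.69, 0.70 and 0.73, *RAD2* at 0.59 and 0.68 in the YPD profiles and *RAD54* at 0.73 in *rpb1-S2A*. *DIN7* was also called in *pcf11-2* (0.86), *pcf11-ts2* (0.88) and *rtt103*Δ (0.85). *MAG1* was called higher in *sen1-1* (0.95) and *DDR48* lower in *rrp6*Δ (-0.87). Where 1.43% of all features were called lower in *rpb1-S2A* than in *ctk1*Δ in YPD, 3 of the 11 were. These were *HUG1*, *PLM2*, a putative transcription factor gene (-0.93, SE 0.11, adjusted p = 0.000113), and *MAG1*, a DNA glycosylase gene (-0.87, SE 0.26, adjusted p = 0.042). Without array b of *ctk1*Δ in YPD, *PLM2* (-0.71) and *MAG1* (-0.60) were no longer called, and *MAG1* also lost its call without either *rpb1-S2A* array (-0.87 and -0.86).

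**Figure D4:**
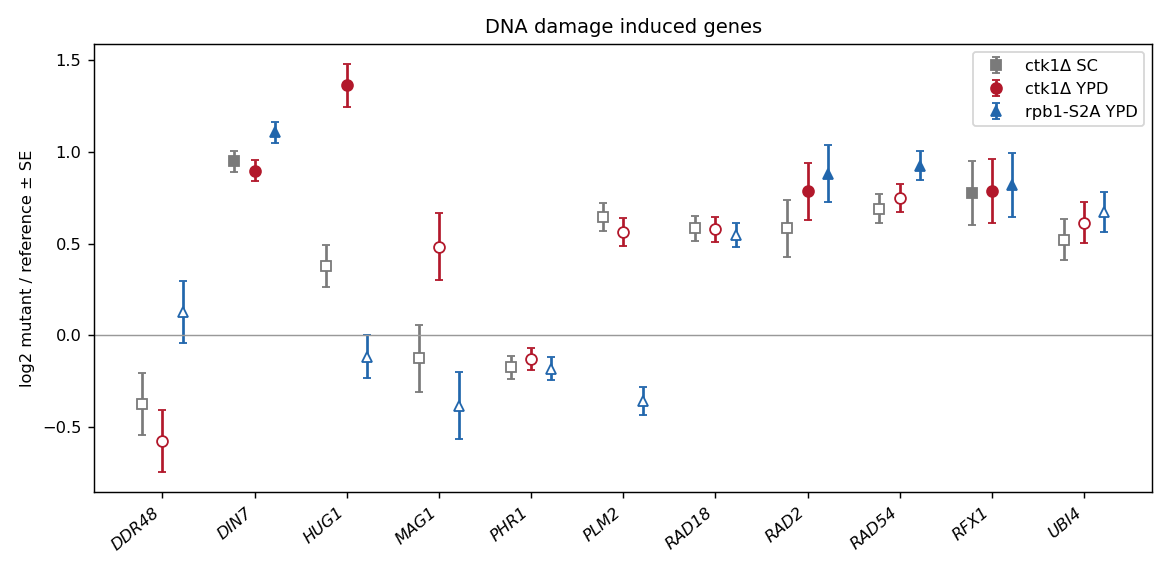
Log2 ratio of mutant over reference with its standard error (y axis) for 11 genes induced by DNA damage (x axis) in *ctk1*Δ in SC (squares), *ctk1*Δ in YPD (circles) and *rpb1-S2A* in YPD (triangles). Filled symbols were called; *DIN7* and *RFX1* were called in all 3 profiles, *HUG1* only in *ctk1*Δ in YPD.

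Among 11 genes of nucleotide supply, *DFR1*, the dihydrofolate reductase gene that serves thymidylate synthesis, fell in *ctk1*Δ in SC (-1.64, SE 0.08), *ctk1*Δ in YPD (-1.35), *rpb1-S2A* (-1.06) and *sen1-1* (-1.41). *URA8*, a CTP synthase gene, rose in *ctk1*Δ in SC (1.19, SE 0.06) and *sen1-1* (2.32, SE 0.06) and was at 0.73 in *ctk1*Δ in YPD and -0.07 in *rpb1-S2A*, a difference of -0.80 between the last 2 (SE 0.08) that was no longer called with median centring (-0.67), without array b of *ctk1*Δ in YPD (-0.69) or without array b of *rpb1-S2A* (-0.76). *CDC21* was at 0.41, 0.32 and 0.34 in *ctk1*Δ in SC, *ctk1*Δ in YPD and *rpb1-S2A*. None of 19 MBF targets of the G1/S transition was called in either *ctk1*Δ profile. Their median was 0.29 in *ctk1*Δ in SC, where *RNR1* was highest, 0.24 in *rtt103*Δ, 0.07 in *ctk1*Δ in YPD and 0.04 in *rpb1-S2A*. In *ctk1*Δ in SC, 13 of the 19 were higher and 3 lower at an adjusted p under 0.05 of any size, beside 61.3% of all features in either direction. *PRI1*, a primase subunit gene, fell in *rpb1-S2A* (-0.96, SE 0.05) and in *pcf11-2* (-0.85). No histone gene of 8 was called, with a median of -0.35 in *ctk1*Δ in SC, -0.35 in *ctk1*Δ in YPD and -0.39 in *rpb1-S2A*. Of 7 measured G2/M genes, *CLB1*, a mitotic cyclin gene, fell in *ctk1*Δ in SC (-0.93, SE 0.08), and of 8 M/G1 genes only *CTS1*, a chitinase gene, was called, higher in *pcf11-2* (0.88) and *pcf11-ts2* (1.09). The *CTS1* call in *pcf11-2* was lost with median centring (0.37) and with the authors' ratios (0.71). With each gene centred on its median over profiles, *DFR1* in *rpb1-S2A* was at -0.54, *PRI1* at -0.74 in *rpb1-S2A* and -0.63 in *pcf11-2*, *CLB1* in *ctk1*Δ in SC at -0.70 and *CTS1* at 0.49 and 0.71, none of them called. Cell cycle position was not measured, and its part in the *RNR1* values was not tested.

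**Figure D5:**
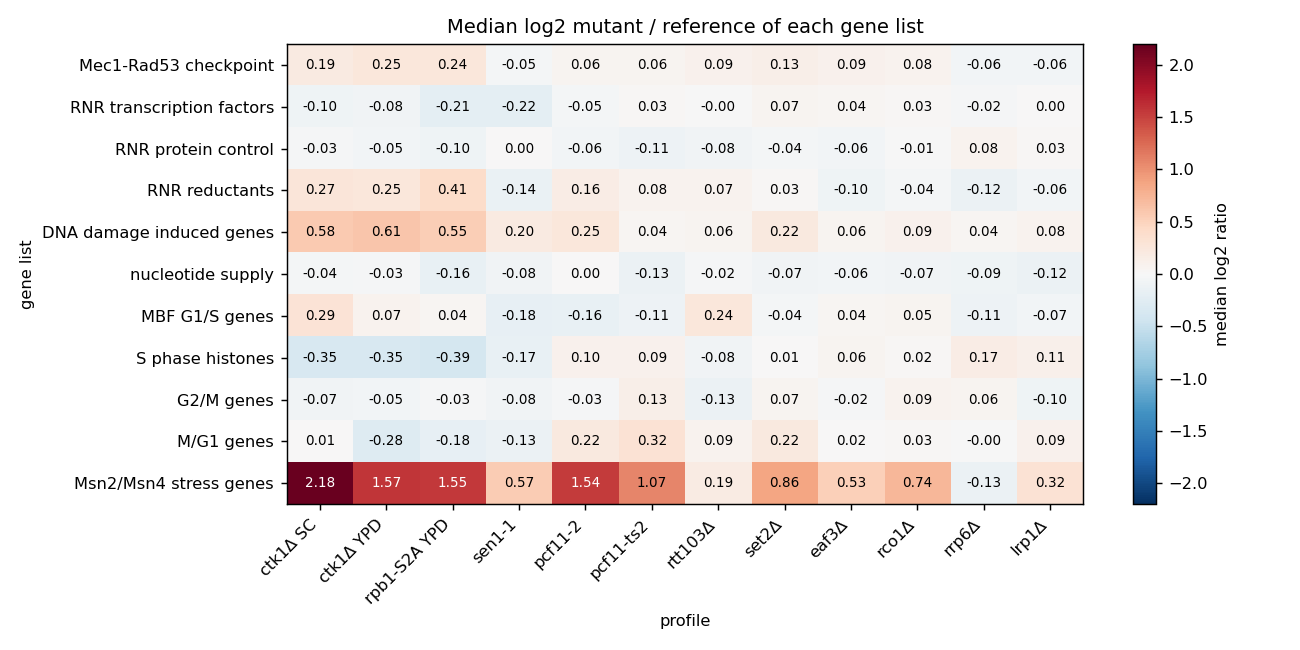
Median log2 ratio of mutant over reference (colour and printed value) of 11 gene lists (y axis) in the 12 profiles (x axis). The stress list runs from -0.13 in *rrp6*Δ to 2.18 in *ctk1*Δ in SC, and the list of DNA damage induced genes is highest in both *ctk1*Δ profiles and *rpb1-S2A* (0.55 to 0.61).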

How the data were processed

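Raw scanner files of 22 dual-channel 70-mer arrays were used. Per the file headers they hold foreground and background intensity of both dyes for each spot (15552 spots, of which 12776 were gene and 2776 control spots). The deposited value table holds the authors' processed log2 ratios, normalized and dye-bias corrected by them, per the labels with limma (version 2.12.0 for 6 arrays, no version for 16). It was used only as an alternative, after 6 columns were turned to mutant over reference. In R 4.3.3 with limma 3.58.1, intensities were background corrected (normexp, offset 50), loess normalized within each array with control spots at weight 0, turned to mutant over reference, and averaged over 2 spots per probe and over probes of a gene. Gene symbols came from the probe annotation, and 58 were updated. A single limma fit held 12 profiles and a dye term, which is also the replicate block since a and b differ in dye (9 residual degrees of freedom). P-values were adjusted by Benjamini-Hochberg over all 6373 features within each comparison. The reference RNA counts as 1 control sample, so tests against it leave out the spread between wild type cultures, and it cancels in differences between profiles. Profiles with 1 array borrow the spread of the others. The number of arrays limits precision. Data were simulated with the fit's spread and independent noise. There, 80 of 80 genes set at 2-fold were called in *ctk1*Δ in YPD and 76 of 80 in its difference from *rpb1-S2A*. Of 60 genes set at 1.5-fold, 0 and 3 were called. Those genes lie below the required 1.7-fold, so these last counts follow from the rule and say nothing about the number of arrays. The 6 genes and the gene lists were chosen with earlier results of these data known. Text names the 6 genes, the mutated genes, their chromosomal neighbours, and for each list up to 3 called genes per comparison with the largest ratio. *RAD54*, *RAD2*, *CDC21*, *URA8*, *OKP1*, *RRN7*, *TRX1* and the strain markers *LYS2* and *MET17* were also given in profiles without a call, after their values were seen.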

Additional observations from a re-analysis of the deposited data

Results flagged for a closer look

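Differences between profiles were singled out where limma's test of the difference itself passed with over 1.7-fold. Between *rpb1-S2A* and *ctk1*Δ in YPD these were *RNR3* (-1.02), *RNR4* (-1.09), *HUG1* (-1.48), *MAG1* (-0.87), *PLM2* (-0.93) and *URA8* (-0.80), all lower in *rpb1-S2A*. In this comparison, 1.43% of all features were called lower. *RNR2* (-1.75) is left out of this group because the difference was named in the choice of the genes. The *rpb1-S2A* and *ctk1*Δ strains also differ in mating type, and its part was not tested.

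Between *ctk1*Δ in YPD and *ctk1*Δ in SC these were *RNR4* (0.78) and *HUG1* (0.99), higher in YPD, and *GRX4* (-0.81) and *CTT1*, a catalase gene of the stress list (-1.41), lower in YPD. The *CTT1* call was lost when any of 3 of the 4 arrays was left out (-1.47 to -0.48). Extraction labels differ between these 2 profiles along with the medium.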

How the results depend on the processing

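The 4 calls of the 6 genes in 12 profiles were kept when any 1 array was left out (4 to 4), with the authors' processed ratios, and without the replicate block, which gave 4 and left the count of every comparison as it was; of the other genes named, only *MAG1* in *rpb1-S2A* against *ctk1*Δ in YPD lost its call without the block (adjusted p = 0.102). With an offset of 0 the count was 7, and with no fold minimum 32. For the difference between *ctk1*Δ in YPD and in SC the count was 1, 2 with an offset of 0, 0 with median centring and 4 with no fold minimum. For *ctk1*Δ in SC against *sen1-1* it was 0, and 1 with an offset of 0, with median centring or with the authors' ratios, and 3 with no fold minimum. Against *rrp6*Δ and *lrp1*Δ it was 1, 2 with an offset of 0 and 6 with no fold minimum, which gave 5 against *set2*Δ, *eaf3*Δ and *rco1*Δ, 4 against the *pcf11* alleles and 3 against *rtt103*Δ. Leaving out single arrays gave 1 to 2 for *rpb1-S2A* against *ctk1*Δ in YPD, 0 to 2 between media, 1 to 2 against *set2*Δ, *eaf3*Δ and *rco1*Δ, 0 to 1 against *sen1-1*, 0 to 1 against the *pcf11* alleles, and 1 to 1 against *rtt103*Δ and against *rrp6*Δ and *lrp1*Δ. The count of 2 against *set2*Δ, *eaf3*Δ and *rco1*Δ came without array a of *ctk1*Δ in SC, b of *set2*Δ, a of *eaf3*Δ or a of *rco1*Δ, and the count of 1 against *sen1-1* without either *ctk1*Δ array in SC or array a of *sen1-1*. No call changed direction. Of 81 called values of named genes, 47 were kept in every alternative run except the fold minimum and 34 were lost in at least 1, the *RFX1* and *DIN7* values among them, of which *DIN7* was at 0.26 to 0.52 once each gene was centred on its median over profiles. The cause was not tested. A slide or scan batch as a block was not run because the files give neither.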
